A study of Gallus gallus with 53 samples.

Results

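The response of wild type (WT) DT40 B cells to a low and a high dose of anti-IgM, 0.1 and 10 μg/ml, was compared over the first 90 min. The comparison used 11 of the 53 samples of the series, chosen by their labels: 1 unstimulated WT sample (0 min), 5 samples at 0.1 μg/ml and 5 at 10 μg/ml, taken at 15, 30, 45, 60 and 90 min. Low and high dose were paired by time, and the doses differ 100-fold. The 5 WT samples at 1 μg/ml served as an intermediate dose that shares no stimulated sample with either. DT40 is a single transformed chicken B cell line, grown here in RPMI with serum, and the stimulus was M4, a monoclonal antibody against chicken IgM. None of these cells received the MEK inhibitor or carried the IKKβSA knock-in used elsewhere in the series. RNA was measured on the Affymetrix chicken array, and each sample is 1 column of normalised intensities in which 2 biological replicates were combined. No spread between replicates can therefore be given, and no unstimulated sample was taken after 0 min, so a change from 0 min holds the effect of the antibody and of time in culture together. Both doses were set against the same 0 min sample, whose own error enters both courses alike.

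The B cell receptor (BCR) is a membrane immunoglobulin coupled to signalling chains. When anti-IgM cross-links it, Src-family kinases and Syk start several branches, among them the MEK-ERK cascade, calcium entry with NFAT activation, and the CARMA1 pathway to IKK and NF-κB. In lymphocytes these branches first raise short-lived immediate early transcripts and then slower ones, while feedback regulators and phosphatases shorten or prolong the signal. The amount of ligand sets how many receptors are engaged. A dose series therefore asks whether less ligand gives the same transcripts at a smaller size, for a shorter time, or in another direction.

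The row identifiers of the value table do not pair with its values, so no gene is named here, no sequence is shown, and the B cell identity could not be checked against marker genes. The unit counted is the probe set, the group of oligonucleotides that reports 1 transcript region, and several probe sets can report 1 gene. Of 38361 probe sets, 26852 with a mean log2 intensity above 1.05 were tested and the 11509 dimmer ones were left out. The 11 columns were alike in brightness, with median intensities from 2.74 to 2.95 and between 26.2 and 26.9% of probe sets above an intensity of 10.

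The transcript profile differed from 0 min at both doses, and more of it did so at the high dose, chiefly late. The number of probe sets at least 2-fold above the 0 min level at 15, 30, 45, 60 and 90 min was 11, 39, 44, 42 and 48 at 0.1 μg/ml. At 10 μg/ml the corresponding numbers were 18, 59, 95, 125 and 185. The low dose thus had nearly as many raised probe sets at 30 min as at any later time, whereas the number at the high dose grew at every step. The intermediate dose gave 22, 50, 80, 121 and 163, near the high dose from 45 min onward. For levels at least 2-fold below 0 min the numbers were 1, 4, 10, 93 and 150 at 0.1 μg/ml and 3, 7, 43, 194 and 309 at 10 μg/ml. At 1 μg/ml they were 4, 20, 54, 77 and 142, above both other doses up to 45 min and below both at 60 and 90 min. The largest step in the number of lowered probe sets at the low dose came between 45 and 60 min. At 0.1 and 10 μg/ml, but not at 1 μg/ml, the lowered probe sets outnumbered the raised ones at 60 and 90 min.

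Expressed as shares of all probe sets tested, the raised ones at 30 min were 0.145% at 0.1 μg/ml and 0.22% at 10 μg/ml, and the lowered ones 0.0149 and 0.0261%. At 90 min the raised ones were 0.179 and 0.689%, and the lowered ones 0.559 and 1.15%. These counts compare single columns and carry no test. A fit of smooth curves over time to all 53 columns (limma, moderated F-test with Benjamini-Hochberg adjustment over all probe sets tested, threshold 0.05) called 3079 courses (11.5%) at 0.1 μg/ml different from the 0 min level, 939 upward (3.5%) and 2140 downward (7.97%). At 10 μg/ml it called 5120 (19.1%), 1650 upward (6.14%) and 3470 downward (12.9%). Most of these were small: 266 and 567 of them reached a 2-fold change at any time. Centring each column on its median moved the split to 581 upward and 2613 downward at the low dose and to 1044 and 4332 at the high dose.

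**Figure D1:**
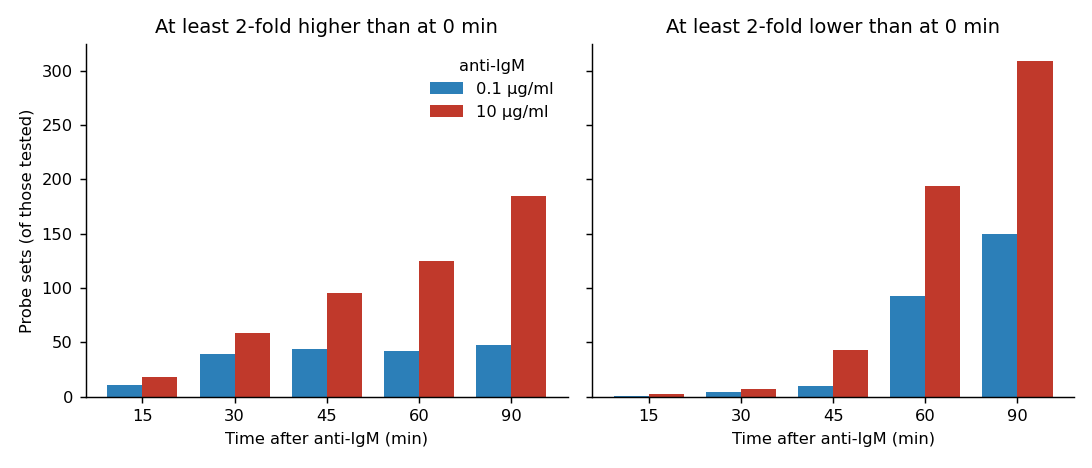
Number of probe sets (of 26852 tested) at least 2-fold higher (left) or lower (right) than at 0 min, by time after anti-IgM, at 0.1 μg/ml (blue) and 10 μg/ml (red), from 1 column per bar and no error. Raised probe sets stay between 39 and 48 from 30 min onward at the low dose and reach 185 at the high dose. Lowered ones reach 150 and 309 at 90 min.

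Set directly against each other at the same time, the doses differed little at first and more with time, mostly because levels were higher at the high dose. At 15 min 1 probe set (0.00372%) was at least 2-fold higher at 10 than at 0.1 μg/ml and 0 were lower (0%). At 30 min 22 were higher (0.0819%) and 0 lower (0%). At 45 min the numbers were 20 (0.0745%) and 5 (0.0186%), at 60 min 43 (0.16%) and 2 (0.00745%), and at 90 min 79 (0.294%) and 13 (0.0484%). At 90 min, 26457 of the 26852 probe sets (98.5%) lay within 1.5-fold of each other at the 2 doses. The median absolute log2 difference over all probe sets was 0.12, 0.10, 0.15, 0.11 and 0.12 at the 5 times, so the bulk of the profile did not drift apart as the 2-fold counts grew. The median standard error of a difference between 2 columns was 0.16 on the log2 scale. The columns at 15 and 45 min carried a small offset by brightness: the brighter probe sets had a median difference of 0.05 at 15 min and -0.06 at 45 min, and the dimmer ones -0.03 and 0.06. Its part in the calls was not tested.

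The fit across all columns asked first whether the 2 courses differed in any shape. It called 780 probe sets (2.9% of those tested), of which 461 (1.72%) were on average higher at 10 μg/ml and 319 (1.19%) lower, while 3867 had an unadjusted p below 0.05. The probe sets higher at 10 μg/ml had a median difference of 0.29 on the log2 scale, averaged over the 5 times, with quartiles of 0.21 and 0.43. Those lower at 10 μg/ml had a median of -0.19, with quartiles of -0.26 and -0.14. A difference of at least 2-fold at some time was reached by 89 of the 461 and by 13 of the 319. The count depended on the times used. It was 1374 without the 15 min columns, 347 without the 45 min columns and 427 without the 90 min columns, and it was 318 when only the WT anti-IgM and unstimulated columns set the error. The downward calls were the less stable: 87 were lower at 10 μg/ml without the 45 min columns, beside 260 higher, and 79 with only the WT columns, beside 239 higher.

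In the probe sets called, the differences in both directions were larger late than early. In the 461 probe sets higher at 10 μg/ml, the median difference was 0.14, 0.16, 0.25, 0.37 and 0.53 at 15, 30, 45, 60 and 90 min, and 288 of them differed most at 90 min. In the 319 lower ones it was 0.06, -0.09, -0.24, -0.31 and -0.38, and 173 differed most at 90 min. These medians describe probe sets called on the same columns. The fit also held both courses to 1 shared level at 0 min, so a gap that starts small and grows is partly fixed by the choice. Side by side against 0 min, the 461 had median changes of -0.02, 0.13, 0.15, 0.04 and 0.00 at the low dose, a small rise that had gone by 90 min, and of 0.10, 0.32, 0.39, 0.42 and 0.54 at the high dose. For the 319 the medians were -0.16, -0.12, -0.20, -0.30 and -0.28 at the low dose and -0.09, -0.21, -0.43, -0.59 and -0.65 at the high dose. At the low dose 303 of the 461 and 223 of the 319 stayed within 1.5-fold of the 0 min level at all times, and at the high dose 191 and 122 did so. Over all probe sets tested these shares were 90.4% at the low dose and 88.2% at the high dose, against 65.7 and 41.4% of the 461 and 69.9 and 38.2% of the 319.

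Single probe sets with the smallest p among the brighter ones were picked from both sets. Their differences at 90 min were larger than these medians, so they are not typical members. They are given by letter, as intensities at 15, 30, 45, 60 and 90 min. Probe set A had an early transient at both doses. From 146 at 0 min, it stood at 351, 408, 140, 95.4 and 86.2 at 0.1 μg/ml and at 519, 878, 568, 400.4 and 297 at 10 μg/ml. At 1 μg/ml it read 467, 618, 266, 183 and 160.4, between the others at each time. The highest level came at 30 min at all 3 doses. The low dose was back near the 0 min level at 45 min and below it at 60 and 90 min, while the high dose remained above it. The within-time log2 differences were 0.56, 1.10, 2.03, 2.07 and 1.78, each with a standard error of 0.15 (limma, adjusted p = 3.45e-18 for the course difference).

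Probe set B had a late rise at 10 μg/ml that was missing at 0.1 μg/ml. It began at 155 and read 138, 156, 159, 147 and 150.2 at the low dose, within 1.5-fold of the 0 min level throughout. At the high dose it read 153, 186, 248, 319 and 483, and at the intermediate dose 146, 165, 189, 213 and 296. The log2 difference between high and low dose was 0.15 at 15 min and 1.69 at 90 min, with a standard error of 0.09 (limma, adjusted p = 3.81e-18 for the course difference). Probe set H had the same form. It read 176 at 0 min, then 179, 173, 164, 155 and 149 at the low dose and 181, 185, 259, 307 and 412 at the high dose (limma, adjusted p = 1.00e-18).

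Probe set G combined both features. From 66.4 it read 107, 138, 93.6, 75.9 and 77.6 at 0.1 μg/ml and 129, 228, 295, 257 and 241 at 10 μg/ml. The peak moved from 30 min at the low dose to 45 min at the high dose, and at 90 min the doses were 3.10-fold apart (limma, adjusted p = 1.00e-18). At 30 min the intermediate dose, at 239, was near the high dose, and at 90 min, at 128, it lay between the 2.

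Of the probe sets lower at the high dose, probe set I declined at both doses to unequal depth. It read 48.2 at 0 min, then 45.8, 41.2, 43.6, 36.6 and 30.1 at 0.1 μg/ml and 44.4, 40.0, 29.2, 18.6 and 10.6 at 10 μg/ml. Its log2 difference was -0.04 at 15 min and -1.50 ± 0.11 (SE) at 90 min (limma, adjusted p = 4.64e-14 for the course). Probe set D instead recovered at the low dose. From 43.4 it read 40.8, 36.2, 30.0, 33.0 and 48.9 at 0.1 μg/ml, near its starting level again by 90 min, against 47.6, 36.2, 18.4, 14.4 and 10.1 at 10 μg/ml. At 1 μg/ml it read 41.5, 34.4, 20.2, 18.5 and 20.9, close to the high dose until 45 min and then flat. High and low dose were 4.85-fold apart at 90 min (limma, adjusted p = 5.79e-14).

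**Figure D2:**
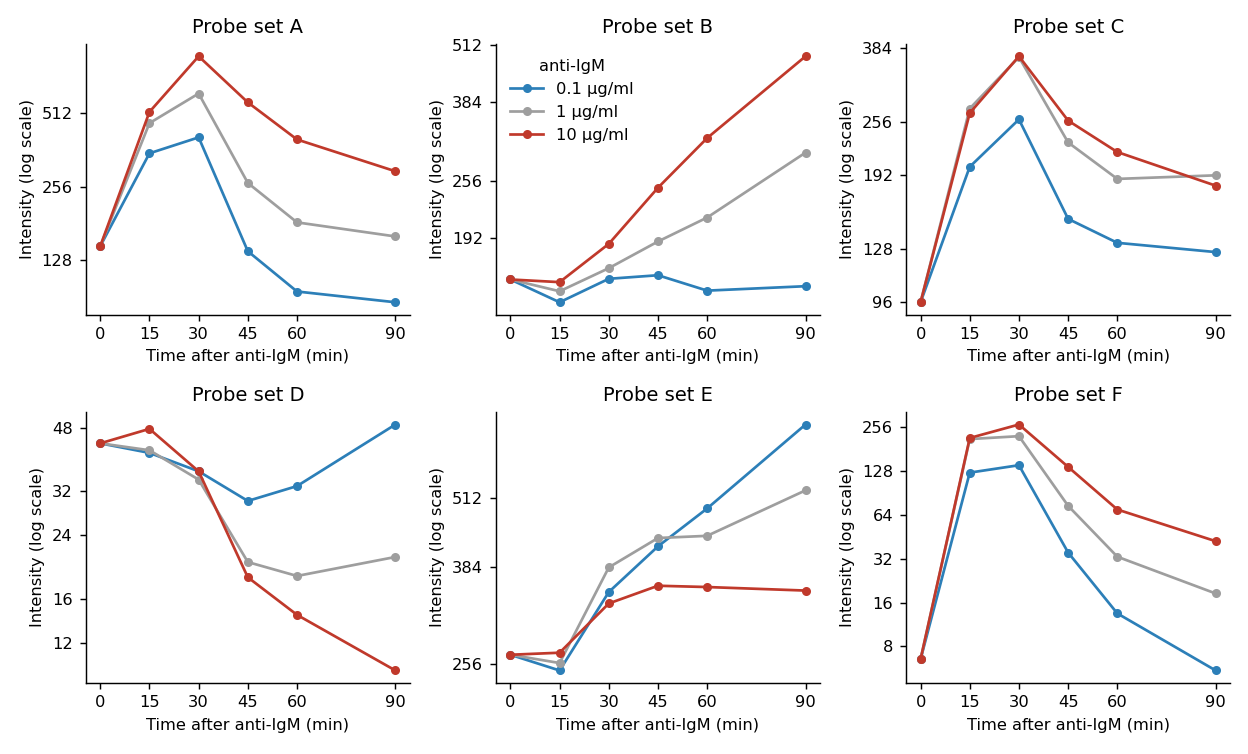
Intensity (log axis) against time after anti-IgM for probe sets A to F at 0.1 (blue), 1 (grey) and 10 μg/ml (red), starting from the shared unstimulated sample at 0 min; each point is 1 column. Probe set A peaks at 30 min at all doses and decays further at the low dose, B rises at the higher doses while staying between 138 and 159 at 0.1 μg/ml, C keeps its form, D is back near its starting level at 90 min at the low dose, E is highest at the low dose, and F is down to 5.47 by 90 min at the low dose against 42.2 at the high dose.

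The next test asked whether the mean of the 5 within-time differences was other than 0. It used the 10 stimulated columns alone with time as a factor, so that the 0 min sample had no part in it. It is named the constant difference here, although a difference that grows with time can also pass it. It called 151 probe sets (0.562%), 140 higher at 10 μg/ml (0.521%) and 11 lower (0.041%), with 2505 at an unadjusted p below 0.05. The 140 had a median log2 difference of 0.49, with quartiles of 0.38 and 0.71, and in 131 of them all 5 differences were above 0. Over all probe sets tested, the 5 differences had 1 sign, above or below 0, in 2529 (9.42%). The 140 were called on these same differences, so their shared sign is largely fixed by the choice. The median differences of the 140 were 0.21, 0.34, 0.49, 0.62 and 0.71 at the 5 times, and 79 of them differed most at 90 min. The 11 were small in effect, with a median of -0.19, and 0 of them reached 2-fold. These calls rest on limma's sharing of error between probe sets of like brightness. Without that trend 3 were called, all higher at 10 μg/ml, with 2255 at an unadjusted p below 0.05, and with the trend the count was 32 without the 60 min columns and 64 without the 90 min columns.

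Probe set C, the third by p among those higher at 10 μg/ml, kept its form at a lower level. It read 96.0 at 0 min, then 201, 260.0, 151, 133 and 126 at 0.1 μg/ml and 269, 367, 258, 218 and 181 at 10 μg/ml. Both doses had their highest level at 30 min, as did 1 μg/ml with 276, 365, 229, 188 and 192. The high dose exceeded the low by 0.59 ± 0.05 (log2, SE over 5 times; limma, adjusted p = 4.22e-05, and 0.0512 without the error trend). Its difference changed with time by 0.10 ± 0.12 per 60 min, which did not pass the test (limma, adjusted p = 0.995).

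Probe set J was strongly raised at both doses and held. From 18.0 it read 44.2, 175, 189, 156 and 133 at 0.1 μg/ml and 75.04, 365, 497, 471 and 461 at 10 μg/ml. The mean log2 difference was 1.32 ± 0.10 (limma, adjusted p = 2.01e-05, and 0.0491 without the error trend), larger than 0 at each time and 1.80 at 90 min. Probe set K was dim at 0 min, at 4.18. It then read 6.96, 51.4, 74.3, 57.2 and 49.9 at the low dose and 14.4, 170, 354, 416 and 395 at the high dose, a mean difference of 2.17 ± 0.19 (limma, adjusted p = 4.22e-05, and 0.0505 without the trend). A response of many-fold above the starting level was thus present at the low dose in both, at a fraction of the height. In both, the difference also grew with time, by 0.83 ± 0.11 per 60 min in J and 1.57 ± 0.19 in K. The test of that change gave adjusted p = 0.00139 and 8.66e-04 (limma), and 0.260 and 0.194 without the error trend.

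The third test asked whether the difference between the doses changed with time between 15 and 90 min. It called 94 probe sets (0.35%), 72 in which the high dose moved upward relative to the low (0.268%) and 22 in which it moved downward (0.0819%), with 1514 at an unadjusted p below 0.05. The median difference of the 72 was 0.10, 0.17, 0.48, 0.81 and 1.26 at the 5 times, and that of the 22 was 0.14, -0.03, -0.31, -0.48 and -1.04. Against 0 min, the 72 stood at 0.15, 0.53, 0.57, 0.33 and 0.28 at the low dose, past their highest median by 60 min, and at 0.19, 0.62, 0.99, 1.24 and 1.52 at the high dose. The 22 stood at -0.11, -0.15, -0.31, -0.40 and -0.30 at the low dose and at 0.02, -0.12, -0.64, -1.14 and -1.45 at the high dose. At 30 min the medians of the 72 at the 2 doses differed little. These medians describe probe sets called by the change with time on the same columns, so the growth of the gap is fixed by the choice. Without the error trend 5 were called, 4 upward and 1 downward, with 1480 at an unadjusted p below 0.05. With the trend, 20 were called without the 90 min columns, 62 without the 30 min columns, 60 without the 60 min columns and 210 without the 45 min columns.

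Probe sets L and M had the smallest p upward among the brighter probe sets. Probe set L read 4.61 at 0 min, then 5.23, 35.3, 87.7, 71.1 and 31.0 at 0.1 μg/ml and 4.88, 62.0, 180, 237 and 214 at 10 μg/ml. The onset came between 15 and 30 min at both doses, and the highest level at 45 and at 60 min. By 90 min the low dose had lost most of its rise in intensity, while the high dose had kept nearly all of it. Its difference grew by 2.23 ± 0.15 per 60 min (log2, SE, limma, adjusted p = 8.16e-06, and 0.0129 without the error trend). The course difference of L gave adjusted p = 0.00443 (limma), and was lost without the trend (adjusted p = 0.0503). Probe set L was dim at 0 min and, at both doses, at 15 min. At 1 μg/ml the levels were 4.32, 69.4, 186, 213 and 163, close to the high dose. Probe set M read 7.67, then 10.0, 45.0, 54.3, 43.9 and 15.95 at the low dose and 13.0, 63.6, 122, 149 and 162 at the high dose, a slope of 2.47 ± 0.18 (limma, adjusted p = 1.14e-05, and 0.0190 without the trend). It was 10.2-fold apart at 90 min.

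In the downward direction, probe set D had a slope of -2.08 ± 0.16 per 60 min (limma, adjusted p = 1.56e-05, and 0.0129 without the trend). Probe set E went the other way from most: it was higher at the lower dose. From 266 at 0 min it read 250, 346, 419, 490 and 696 at the low dose, 257, 384, 434, 438 and 529 at the intermediate dose, and 269, 330.0, 355, 353 and 348 at the high dose. At 15 min the 3 doses lay together, and at 90 min they stood in the reverse order of dose, the low dose 2.00-fold above the high. The slope was -0.89 ± 0.08 per 60 min (limma, adjusted p = 4.41e-05), which was lost without the error trend (adjusted p = 0.170), whereas the course difference passed both ways (adjusted p = 6.62e-08 and 5.76e-05).

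To ask which responses kept their size, probe sets were chosen at the intermediate dose by a change of at least 2-fold between 15 and 90 min, and the same change was then read at 0.1 and 10 μg/ml. Neither the choice nor the change uses the 0 min sample or a column of the other doses. The 184 probe sets that went up at 1 μg/ml had a median log2 change of 0.76 at the low dose (quartiles 0.54 and 1.02) and 1.11 at the high dose (0.83 and 1.60), a ratio of 0.686. The 95 that went down had -0.95 (-1.21 and -0.65) and -1.27 (-1.61 and -0.97), a ratio of 0.744. The ratio of medians was thus below 1 in both directions, on the log2 scale. At least 2-fold was reached by 48 of the 184 at the low dose and 111 at the high dose, and at least 1.5-fold by 129 and 164. For the 95 the numbers were 43 and 68, and 76 and 90.

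Direction was nearly always kept. At the low dose 4 of the 184 and 2 of the 95 changed opposite to the intermediate dose, none of them by 1.5-fold, and at the high dose 0 of either did. The share that kept direction over all probe sets was not counted. Over all of them the change at 1 μg/ml had a correlation of 0.51 with the low dose and 0.54 with the high dose. Time in culture enters the change at all 3 doses. Size was more often smaller at the low dose, with exceptions: 38 of the 184 and 21 of the 95 changed more at 0.1 than at 10 μg/ml. The calls above took in 85 of the 184 for the course difference, 30 for the constant difference and 36 for a difference changing with time, beside the 2.9, 0.562 and 0.35% of all probe sets. For the 95 they took in 36, 10 and 15. In 130 of the 184 and 77 of the 95, the 95% interval of the mean difference over the 5 times lay wholly within 1.5-fold (70.7 and 81.1%, beside 99.2% of all probe sets tested), although this average can hide a difference that opened late.

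**Figure D3:**
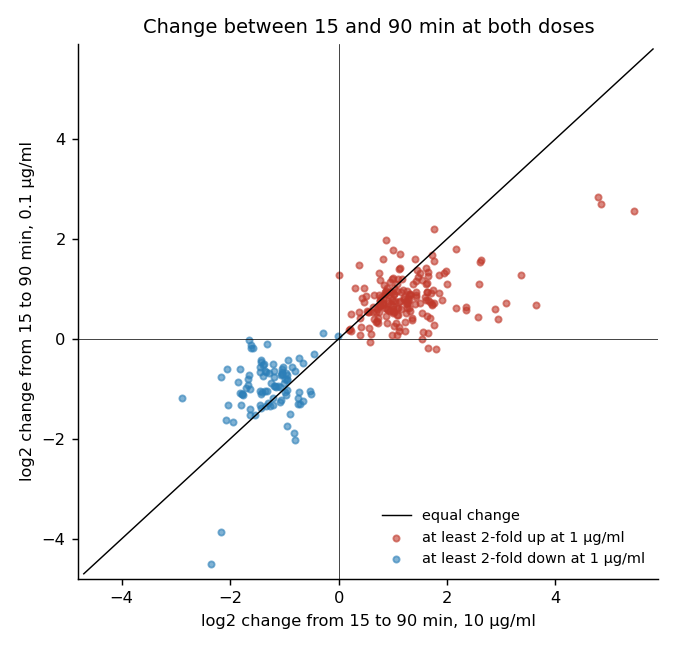
Log2 change from 15 to 90 min at 0.1 μg/ml (vertical) against 10 μg/ml (horizontal) for the 184 probe sets that went up at least 2-fold (red) and the 95 that went down at least 2-fold (blue) at 1 μg/ml; each point is 1 probe set and the line marks equal change. Most points lie nearer to 0 on the vertical axis than the line, with medians of 0.76 against 1.11 and -0.95 against -1.27.

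A window from 30 to 90 min chose other probe sets. The 75 probe sets that went up at least 2-fold at 1 μg/ml had medians of 0.53 at the low dose and 1.14 at the high dose, a ratio of 0.463, and 64 of them (85.3%) changed less at the low dose. The 63 that went down had -1.15 and -1.26, a ratio of 0.913, and 39 (61.9%) changed less at the low dose. Over all probe sets tested, the change from 30 to 90 min was lower at the low dose than at the high dose in 47.6%. This share is the counterpart of the 85.3% only. For the 63, a smaller decrease is a higher value at the low dose. In the 159 probe sets with their lowest level at 60 or 90 min at 1 μg/ml, chosen against 0 min, the medians over the same window were -0.73 and -1.04, so how near the decreases at the doses lay to each other depended on how the probe sets were chosen.

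The levels at 90 min give the same picture without a starting point. Of the 184 raised probe sets, 97 (52.7%) lay within 1.5-fold between the doses at 90 min, 48 between 1.5- and 2-fold, and 39 were at least 2-fold apart, 38 of these higher at 10 μg/ml. Of the 95 lowered ones 64 (67.4%) lay within 1.5-fold and 12 were at least 2-fold apart. Of these 12, 4 were higher at 10 μg/ml. Over all probe sets tested 98.5% lay within 1.5-fold and 92 were at least 2-fold apart, 79 of these higher at 10 μg/ml. Against 0 min, the raised set stood at medians of -0.11, 0.26, 0.55, 0.56 and 0.66 at the low dose and 0.02, 0.30, 0.67, 0.87 and 1.16 at the high dose. The lowered set stood at -0.13, -0.12, -0.48, -0.87 and -1.03, and at -0.03, -0.09, -0.55, -1.01 and -1.27. At both doses the lowered set held its main step between 30 and 60 min.

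The probe sets with the largest changes at 1 μg/ml in that window included both kinds. Probe set L, the largest increase, changed by 2.56 at the low dose, 5.24 at the intermediate and 5.45 at the high dose. Probe set F, the largest decrease, was an early transient. It read 6.53 at 0 min, then 125, 140.0, 35.2, 13.5 and 5.47 at 0.1 μg/ml and 215, 266, 136, 69.6 and 42.2 at 10 μg/ml. The rise within 15 min was present at every dose, and by 90 min the low dose was back within error of the dim starting level while the high dose was still several-fold above it. Its log2 change from 15 to 90 min was -4.51 at the low and -2.35 at the high dose, so the larger decrease belonged to the smaller response (limma, adjusted p = 7.07e-07 for the course difference). Probe set N had the same form, at 38.6, then 702, 691, 196, 101 and 48.5 at the low dose and 1034, 1282, 723, 399 and 231 at the high dose (limma, adjusted p = 8.47e-04). In all, 5 of the 95 lowered probe sets were at least 2-fold above 0 min at 15 or 30 min at 1 μg/ml, and at 90 min these 5 stood at a median of -0.32 against 0 min at the low dose and 1.02 at the high dose.

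Timing was compared through the time of the highest level in 193 probe sets raised at least 2-fold over 0 min at some time at 1 μg/ml, and of the lowest level in 194 lowered ones. The highest level came at the same time at both doses in 99 of the 193 (51.3%), earlier at 0.1 μg/ml in 84 (43.5%) and later in 10 (5.18%). The median time was 60 min at the low dose and 90 min at the others. At 0.1 μg/ml the highest level fell at 15, 30, 45, 60 and 90 min in 4, 28, 57, 27 and 77 probe sets, and at 10 μg/ml in 1, 17, 29, 16 and 130. For the lowest level of the 194 the time was the same in 115 (59.3%), earlier at the low dose in 57 (29.4%) and later in 22 (11.3%), and the median was 90 min at all 3 doses. An earlier time at the low dose was thus more frequent for raised than for lowered probe sets, by these counts and without a test of the difference. The course ended at 90 min, where the extreme at 10 μg/ml fell in 130 of the 193 and 139 of the 194. For these a later time at the low dose could not be seen. The excess of earlier over later times is therefore partly fixed by the end of the course. The shares over all probe sets were not counted.

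The time of an extreme is loosely fixed where a course is flat, so the loss by 90 min was also measured. Of the 193 raised probe sets, 40 (20.7%) were at least 1.5-fold below their own highest level by 90 min at the low dose, 30 (15.5%) at the intermediate dose and 21 (10.9%) at the high dose. A 2-fold loss was seen in 23, 10 and 10. Among the 194 lowered probe sets, 6, 12 and 5 had regained 1.5-fold from their lowest level by 90 min. Neither the loss nor the regain was counted over all probe sets. Most raised probe sets whose highest level came before 90 min at the low dose thus lay within 1.5-fold of it at 90 min, and lowered probe sets seldom recovered at any dose within the course.

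**Figure D4:**
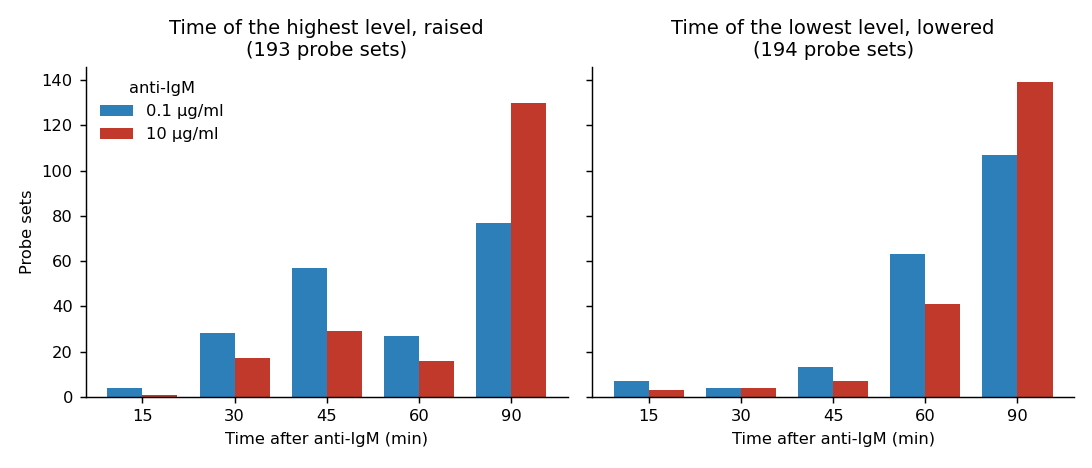
Number of probe sets whose highest level (left, 193 raised at least 2-fold at 1 μg/ml) or lowest level (right, 194 lowered) fell at each time after anti-IgM, at 0.1 μg/ml (blue) and 10 μg/ml (red). The highest level fell at 90 min in 77 at the low dose and 130 at the high dose, and at 45 min in 57 and 29.

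Sorted by their time at 1 μg/ml, early and late responses differed in how the low dose fell short, by medians and without a test. In the 41 raised probe sets with their highest level at 15 to 45 min, the 2 doses were apart from the start, with median differences of 0.37, 0.47, 0.65, 0.96 and 1.04 at the 5 times. Against 0 min they stood at 0.58, 1.34, 1.07, 0.65 and 0.36 at the low dose and at 0.83, 1.80, 1.83, 1.54 and 1.31 at the high dose. From 30 to 90 min the median change was -0.83 (quartiles -1.54 and -0.60) at the low dose and -0.47 (-0.94 and -0.04) at the high dose, and 32 of the 41 lost more at the low dose. The early set was therefore both lower and shorter at 0.1 μg/ml. The calls took in 33 of the 41 for the course difference, 31 for a constant difference upward and 13 for an upward change with time. Over all probe sets tested, these calls took in 2.9, 0.521 and 0.268%.

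In the 152 raised probe sets with their highest level at 60 or 90 min, the doses stayed close until 45 min and then parted. The median differences were 0.11, 0.06, 0.19, 0.31 and 0.53. Against 0 min, the low dose stood at -0.02, 0.38, 0.67, 0.70 and 0.76, a plateau from 45 min, and the high dose at 0.08, 0.41, 0.77, 1.01 and 1.26. From 30 to 90 min the medians were 0.38 and 0.83, and 127 of the 152 changed by less at the low dose. The course difference was called in 83 of them, beside 2.9% of all probe sets tested. In the 159 lowered probe sets with their lowest level at 60 or 90 min the differences were small at all times, at 0.12, -0.01, -0.19, -0.15 and -0.23. They stood at -0.27, -0.26, -0.52, -0.91 and -1.03 at the low dose and at -0.14, -0.26, -0.70, -1.06 and -1.28 at the high dose. Of the 159, 47 were called for the course difference, beside the same 2.9%.

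**Figure D5:**
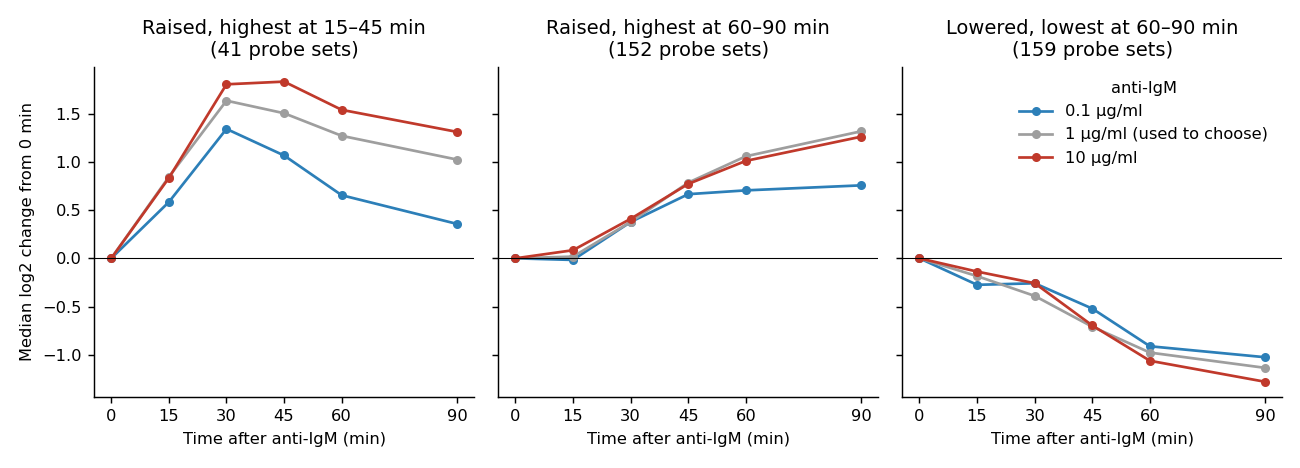
Median log2 change from 0 min against time after anti-IgM at 0.1 (blue), 1 (grey, the dose used to choose) and 10 μg/ml (red), for 41 early raised, 152 late raised and 159 late lowered probe sets. All doses share the 0 min sample. The early set is lower at the low dose from 15 min, the late raised set parts after 45 min, and the lowered set ends at -1.03 and -1.28.

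In the probe sets called above, the intermediate dose lay mostly between the other 2 at 90 min. In the 461 probe sets higher at 10 μg/ml, 1 μg/ml exceeded 0.1 μg/ml by a median of 0.40 and 10 μg/ml did so by 0.53, and in 352 of them the 1 μg/ml level was between the others. In the 319 lower ones the medians were -0.13 and -0.38, with 251 between. Among the probe sets whose difference changed with time, 70 of the 72 and 22 of the 22 were ordered by dose at 90 min. For the constant difference, 120 of the 140 higher at 10 μg/ml and 6 of the 11 lower were so ordered. At 45 min the corresponding medians were 0.12 and 0.25 in the 461, and -0.21 and -0.24 in the 319. By these medians, the part of the gap present at 1 μg/ml was larger at 90 than at 45 min in the 461 and smaller in the 319. This change was not tested, and the 45 min columns carried the offset by brightness given above. These medians share the low dose column. The sets were called for a gap between the outer doses, and a wide gap leaves more room for a level in between. The share in between over all probe sets was not counted.

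The same probe sets were read in columns that had no part in these calls other than in the error. Under CD40 ligand, a different stimulus, 286 of the 461 (62.0%) were on average higher at 6 than at 1 μg/ml, with a median difference of 0.06 on the log2 scale, and 67 of the 319 (21.0%), with a median of -0.08. Over all probe sets tested 49.4% were higher, with a median of -0.00. In WT cells pre-treated with the MEK inhibitor and given 10 μg/ml anti-IgM, the 461 stood at median changes of 0.06, 0.16, 0.31, 0.40 and 0.44 from the 0 min sample of those cells, and the 319 at -0.10, -0.20, -0.26, -0.26 and -0.30. In IKKβSA cells, whose IKKβ carries inactivating substitutions, the medians at 90 min were 0.69 and -0.30. The median over all probe sets at 90 min was -0.00 with the inhibitor and -0.02 in IKKβSA cells.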

How the data were processed

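RNA of DT40 cells was hybridised to the Affymetrix chicken array. The authors deposited 1 table of intensity values for 53 samples, normalised by RMA per the submitters' notes (version not given in the sources used here), on a linear scale and with 2 biological replicates combined in each column. No column was left unmapped (0). Values were taken as log2 without a pseudocount. The 30% of probe sets with the lowest mean log2 level (1.05 or below) were left out. Tests were run in R 4.3.3 with limma 3.58.1, a variance trend over intensity and Benjamini-Hochberg adjustment (threshold 0.05) over all probe sets kept. Courses were natural cubic splines of time (knots at 25 and 50 min, boundaries at 0 and 90 min) with an intercept for each of 3 cell conditions, fitted to all columns with 20 residual degrees of freedom. The constant difference and its change with time were fitted to the 10 stimulated columns with time as a factor (4 and 3 residual degrees of freedom). P-values thus measure deviation from smooth curves, or the spread of the 5 within-time differences, and not replicate spread; an exact sign test over 5 pairs could not go below 0.0625. Scripts were tested on simulated data. The array's number of columns limits the precision.

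Probe sets given by letter were the first by p in each direction with a level above the median of those kept, or the largest changes at 1 μg/ml; those drawn in the plot of single probe sets were picked from these after their values were seen. The probe sets that the study lists as responding had a median largest change of 0.31 (log2) at 10 μg/ml, as had all probe sets, which is why row identifiers were not used. The comparison, the lists and the tests were chosen with earlier results of these data known.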

Additional observations from a re-analysis of the deposited data

Results flagged for a closer look

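The test of the change itself (limma) called a difference between 10 and 0.1 μg/ml anti-IgM that changed with time in 94 probe sets (0.35%). In 72 the high dose moved upward relative to the low dose (0.268%), and in 22 it moved downward (0.0819%). Without the error trend 5 were called, and with the trend 20 were called without the 90 min columns. Among those given by letter, the difference moved by 2.23 per 60 min in probe set L and by 2.47 in probe set M, both on the log2 scale. In L and M the low dose had lost most of its rise in intensity by 90 min. The difference moved by -2.08 in probe set D, which recovered at the low dose only among the 3 doses of anti-IgM. In probe set E, which ended highest at the low dose, it moved by -0.89, and this call was lost without the error trend.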

How the results depend on the processing

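The median changes from 15 or 30 to 90 min kept their sign in every alternative run. In each test the direction with more calls also stayed the same. Most other values are counts or percentages, which have no sign to change. In all, 64 alternative values stayed near those reported while 32 moved further. Without the error trend, 3 constant differences and 5 differences changing with time were called. With each column centred on its median, 610 course differences, 115 constant differences and 65 changing with time were called. With a minimum change of 2-fold, 102 course differences, 50 constant differences, 266 courses at 0.1 μg/ml and 567 at 10 μg/ml remained. With only the WT anti-IgM and unstimulated columns, 318 course differences and 1351 and 2824 courses were called. With the 1 μg/ml columns in the fit, 302 constant differences and 151 changing with time were called. Leaving out each time in turn gave 347 to 1374 course differences (lowest without 45 min, highest without 15 min), 32 to 223 constant differences (without 60 and 15 min), 20 to 210 changing with time (without 90 and 45 min), 2098 to 4811 courses at 0.1 μg/ml (without 45 and 15 min) and 3186 to 6348 at 10 μg/ml (without 90 and 15 min). Fewer columns enter these fits; the cause of the higher counts was not tested. Probe sets chosen at 1.5-fold at 1 μg/ml had median changes from 15 to 90 min of 0.39 at the low and 0.52 at the high dose upward, and -0.52 and -0.81 downward; chosen at 3-fold, 1.23 and 1.76, and -1.51 and -1.84. From 30 to 90 min the low dose medians were 0.53 and -1.15. No replicate block was fitted, because each condition and time is 1 column; the doses were paired by time in the constant difference and its change with time.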
